A study of Mus musculus with 8 samples.

Results

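Arginine is used in macrophages by enzymes that compete for it, and the genes of arginine, nitric oxide and polyamine metabolism were examined in adipose tissue macrophages (ATMs) from obese and lean mice. The 10 genes listed were Arg1, Arg2, Nos2, Ass1, Asl, Odc1, Srm, Sms, Sat1 and Slc7a2, matched by exact symbol in the annotation of the array, each represented by the brightest of the probe sets that carry its symbol alone. By this rule 8 of the 10 were measured, among 18820 genes in all. Arg2, the mitochondrial arginase, and Ass1, which makes the argininosuccinate that Asl cleaves, had only probe sets that also carry another symbol (Vti1b and Gm5424), so no value is given for either.

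ATMs came from epididymal adipose tissue of male wildtype C57Bl/6 mice and were taken from the stromal cells with magnetic beads against F4/80. The 8 arrays were 4 from obese mice on a lard-based high-fat diet (HFD) and 4 from lean mice on a low-fat diet (LFD), 1 of each in 4 separate experiments, and each array held RNA from a pool of mice. Fat made up 45% of the energy of the HFD used for experiments 1 and 3 and 60% of that used for experiments 2 and 4, against 10% in every LFD, and the labels put the feeding at 16, 15, 16 and 10 weeks in experiments 1, 2, 3 and 4. Levels are the log2 values deposited, differences are HFD minus LFD on that scale, and a log2 of 4.32 (20 on the linear scale) was taken as the limit of dim signal.

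Arginase 1 splits arginine into urea and ornithine and is known as a product of macrophages exposed to IL-4, whereas the inducible nitric oxide synthase encoded by Nos2 turns arginine into nitric oxide and citrulline after LPS or interferon-gamma. Slc7a2 brings arginine into the cell, and Ass1 and Asl rebuild it from citrulline. Ornithine decarboxylase (Odc1) starts the polyamines from ornithine, spermidine synthase (Srm) and spermine synthase (Sms) lengthen them, and the acetyltransferase encoded by Sat1 marks them for export or breakdown.

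RefSeq start regions were matched for 3 of the 8 measured genes, Sms, Odc1 and Sat1, and all 3 are shown. They were not chosen by their difference between diets. Sms had the smallest p between diets of the 8 genes, whereas Odc1 and Sat1, at the entry and the exit of the polyamine path, did not have 1 direction in all experiments. Each run below holds the 250 bases before the start site, 5′ to 3′ on the strand of the gene, in GRCm38.p6. They lie at chrX:157492288-157492537 (minus strand) for Sms, the outer of its 2 start sites, at chr12:17544623-17544872 (plus strand) for Odc1 and at chrX:155216450-155216699 (minus strand) for Sat1. The 1 start site matched for Odc1 lies inside the annotated gene, which begins at chr12:17544808, so the end of that run is within the gene. Capitals mark the E-box CACGTG, which reads the same on both strands, and the GC-box GGGCGG on either strand (CCGCCC where it lies on the other strand).
Sms: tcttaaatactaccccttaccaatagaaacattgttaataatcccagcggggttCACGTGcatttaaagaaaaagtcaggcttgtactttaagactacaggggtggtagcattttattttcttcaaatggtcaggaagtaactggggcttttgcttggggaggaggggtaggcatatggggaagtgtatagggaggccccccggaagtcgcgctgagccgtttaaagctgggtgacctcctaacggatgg
Odc1: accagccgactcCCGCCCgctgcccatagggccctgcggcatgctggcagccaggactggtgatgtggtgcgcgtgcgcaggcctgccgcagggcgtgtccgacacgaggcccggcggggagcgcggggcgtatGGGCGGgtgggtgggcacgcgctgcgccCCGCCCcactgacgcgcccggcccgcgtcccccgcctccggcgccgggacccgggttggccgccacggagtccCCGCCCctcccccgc
Sat1: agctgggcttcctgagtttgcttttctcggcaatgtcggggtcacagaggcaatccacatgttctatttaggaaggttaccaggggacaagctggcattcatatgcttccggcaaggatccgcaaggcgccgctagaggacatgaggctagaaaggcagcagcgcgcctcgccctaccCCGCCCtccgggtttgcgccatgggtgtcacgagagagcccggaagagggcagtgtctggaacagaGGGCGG
Sms held 1 CACGTG, which began 196 bases before the start site, and no GGGCGG. Odc1 held 4 GGGCGG and Sat1 held 2, and neither held CACGTG. Of 32851 start regions of this length, 6.02% held CACGTG and 32.7% held GGGCGG, and the letters alone do not show that a factor binds.

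The arrays differed in their levels of cell type markers, which are given here before the members. In experiment 1 the mean of 12 macrophage markers was 8.92 in the HFD pool and 7.67 in the LFD pool, whereas elsewhere it was 10.32 to 10.53 in HFD pools and 10.21 to 10.88 in LFD pools. All 12 macrophage markers lay above the dim limit on every array, but so did all 18 endothelial markers, whose mean was 7.68 to 10.47 in HFD pools and 6.04 to 10.76 in LFD pools and was highest in experiment 1 under both diets. In bulk RNA, fewer cells of a type and less RNA per cell cannot be told apart. Of 12 lymphocyte markers 2 had a mean above the dim limit, and the mean of the list was lower in HFD pools in all 4 experiments, at 3.48 to 3.60 in HFD pools and 3.68 to 3.79 in LFD pools, with no overlap. Cd79b, a B cell receptor chain, had a difference of -0.88 and was lower in all 4 experiments (unadjusted p = 0.092 in limma, and 0.0091 with experiment as a block). It was the 1 gene of the list with the same sign in all 4. Cd79a of the same list, dim on all 8 arrays, differed by 0.13, 0.05, 0.22 and -0.95. Of 14 neutrophil and mast cell markers 4 had a mean above the limit, and the mean of the list was 3.58 to 4.22 in HFD pools and 3.62 to 3.98 in LFD pools. Of the 14 differences 7 were above 0. Mmp9, a gelatinase, was lower in all 4 experiments by -2.11 on average (unadjusted p = 0.029 and adjusted p = 0.982 in limma), though by almost nothing in experiment 1. Its differences were -0.08, -3.36, -3.70 and -1.31 in experiments 1, 2, 3 and 4. The mast cell genes Cpa3, Mcpt4 and Tpsb2 were each higher in HFD pools in 3 experiments, by 0.98, 0.73 and 0.49 on average. Their largest differences lay in experiment 2, at 3.43, 2.44 and 1.38, and they were dim on 6, 7 and 3 of the 8 arrays. Kit and Cma1 of the same list were higher in HFD pools in only 2 experiments, and Cma1 was dim on all 8 arrays. Among fibroblast genes the collagens Col1a1 and Col3a1 were higher in HFD pools in all 4 experiments, by 0.25 to 1.81 for Col1a1 and by 0.10 to 1.77 for Col3a1, with unadjusted p of 0.20 and 0.19 in limma, and of 0.014 and 0.013 with experiment as a block, where the adjusted p were 0.272 and 0.267. Col1a2 and Lum were higher in 3 experiments, and Pdgfra, Dcn, Dpt and Pi16 in only 2. The mean of the 13 measured fibroblast and adipocyte genes was 6.42 to 7.21 in HFD pools and 5.72 to 7.09 in LFD pools. The part of these cells in the members' differences was not tested.

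Arg1 was lower in HFD than in LFD pools in each of the 4 experiments. Its level was 4.13, 4.04, 4.50 and 5.16 in the HFD pools of experiments 1, 2, 3 and 4, against 4.34, 5.42, 5.46 and 8.30 in the LFD pools. The LFD pool of experiment 4 stood far above every other pool, the HFD pools of experiments 1 and 2 lay below the dim limit, and the groups overlapped because the LFD pool of experiment 1 lay among the HFD pools. The differences within experiments were -0.20, -1.38, -0.96 and -3.14, with a mean of -1.42 (SE 0.79) on the log2 scale. In limma this had an unadjusted p of 0.11, and with experiment as a block an unadjusted p of 0.024 and an adjusted p of 0.325. Without the LFD pool of experiment 4 the difference was -0.61 and its unadjusted p in limma was 0.15, whereas without the LFD pool of experiment 1 it was -1.94 with an unadjusted p of 0.034.

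The adipocyte hormone gene Retn had its differences in the same order of size as Arg1. They were -0.42, -2.19, -1.20 and -3.07 in experiments 1, 2, 3 and 4. Retn was also 1 of 5 adipocyte genes, with Adipoq, Plin1, Lep and Cidec, and had the largest difference of them in experiments 2, 3 and 4. The mean of these 5, Retn included, differed by 0.25, -0.71 and -0.27 in experiments 1, 2 and 3 and most of all in experiment 4, where it was lower. That mean was 4.36 to 5.72 in HFD pools and 5.07 to 5.87 in LFD pools, with Adipoq, which encodes adiponectin, below the dim limit in the HFD pools of experiments 2 and 4. Plin1, the lipid droplet coat gene, differed by 0.03, -0.26, -0.01 and 0.06, and Lep, the leptin gene, was higher in HFD pools in all 4 experiments, by 0.73, 0.19, 0.39 and 0.50, so neither ran as Arg1 did. The part of adipocyte RNA in the difference of Arg1 was not tested.

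Nos2 was lower in HFD pools in 3 experiments and higher in experiment 1. Its level was 6.75, 3.59, 4.16 and 3.71 in the HFD pools of experiments 1, 2, 3 and 4, against 6.03, 4.80, 4.80 and 4.65 in the LFD pools. Both pools of experiment 1 stood above all others, and outside that experiment every HFD pool lay below the dim limit and below every LFD pool. Over all 8 arrays the difference was -0.52 (SE 0.72, unadjusted p = 0.49 in limma). Without experiment 1 it was -0.93, with an unadjusted p of 0.0012 and an adjusted p of 0.296 in limma, but all 3 HFD values then lie below the dim limit, so that size and p rest on dim signal. With values set to the dim limit the difference was -0.43 without experiment 1, where the HFD pools then have no spread, and -0.14 over all arrays. Leaving out the HFD pool of experiment 1 alone gave -1.25, with an unadjusted p of 0.011 in limma, whereas without the HFD pool of experiment 2 or 4 or the LFD pool of experiment 1 it was -0.23 to -0.20, with unadjusted p of 0.77 to 0.81. The pools of experiment 1 that were high in Nos2 were also those with the lowest macrophage and the highest endothelial means, and the part of other cells in the Nos2 level was not tested.

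Arginase 1 and the inducible synthase use the same substrate, so the diet differences of their genes were compared within arrays. The difference of Arg1 minus that of Nos2 was -0.92, -0.18, -0.33 and -2.20 in experiments 1, 2, 3 and 4, below 0 in all 4, with a mean of -0.91. The exact two-sided permutation of the diets gave p = 0.429, and the exact flips of sign within experiments gave p = 0.125, which is the smallest that 4 experiments allow. Without the LFD pool of experiment 4 the mean was 0.04, and without the HFD pool of experiment 1 it was -0.07.

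**Figure D1:**
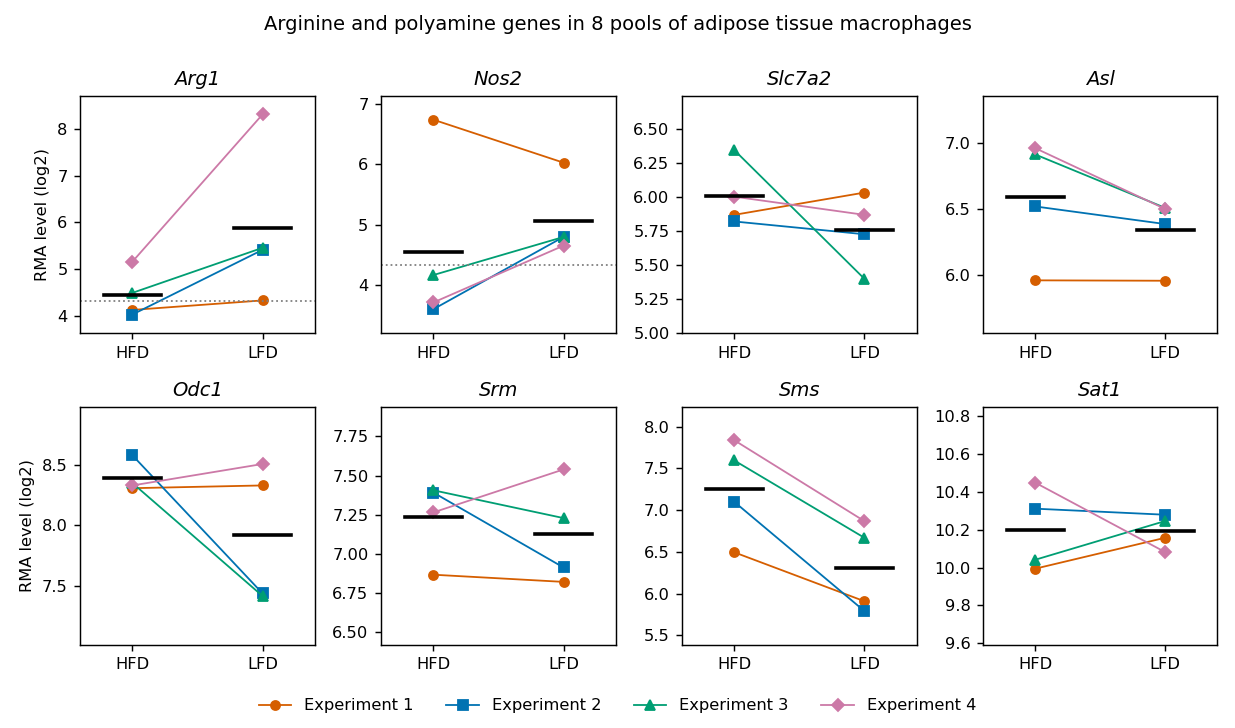
RMA log2 level (vertical axis, a separate scale for each gene) of the 8 measured genes in HFD (left) and LFD (right) pools, with 1 point per pool, lines joining pools of 1 experiment, black bars for the mean of each diet and a dotted line at the dim limit of 4.32. All 4 lines of Sms slope down to the right, with HFD pools at 6.49 to 7.84 and LFD pools at 5.79 to 6.87, while the LFD pool of experiment 4 sits alone at 8.30 for Arg1.

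Slc7a2, the cationic amino acid transporter that carries arginine, was above the dim limit on all arrays and differed mainly in experiment 3. Its level was 5.87, 5.82, 6.34 and 6.00 in the HFD pools of experiments 1, 2, 3 and 4, against 6.03, 5.72, 5.40 and 5.87 in the LFD pools. The groups overlapped, and the mean difference of 0.25 (SE 0.17, 95% interval -0.14 to 0.64, unadjusted p = 0.17 in limma) came with 3 positive experiments and 1 negative. Without the HFD pool of experiment 3 it was 0.14 and without the LFD pool of experiment 3 it was 0.13.

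Asl, argininosuccinate lyase, was higher in HFD pools in all 4 experiments, though by almost nothing in experiment 1. Its level was 5.96, 6.52, 6.91 and 6.96 in the HFD pools of experiments 1, 2, 3 and 4, against 5.95, 6.38, 6.51 and 6.50 in the LFD pools. Each HFD pool thus lay above its own LFD pool while the groups overlapped, since both pools of experiment 1 were low. The mean difference was 0.25 (SE 0.24, 95% interval -0.31 to 0.82), with an unadjusted p of 0.33 in limma and of 0.062 with experiment as a block. Without the HFD pool of experiment 1 it was 0.46, with an unadjusted p of 0.038, and without the HFD pool of experiment 3 or 4 or the LFD pool of experiment 1 it was 0.12 to 0.14, with unadjusted p of 0.60 to 0.63.

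Sms, spermine synthase, differed in the same direction in every experiment. Its level was 6.49, 7.10, 7.59 and 7.84 in the HFD pools of experiments 1, 2, 3 and 4, against 5.91, 5.79, 6.67 and 6.87 in the LFD pools. In each experiment the HFD pool was the higher, by 0.59, 1.31, 0.93 and 0.97, and the groups overlapped only because the levels also differed between experiments. The mean difference was 0.95 (SE 0.36), or 1.93-fold, with an unadjusted p of 0.031 and an adjusted p of 0.982 in limma. With experiment as a block the 95% interval was 0.62 to 1.27, the unadjusted p 0.00048 and the adjusted p 0.0826. Without the block, leaving out the HFD pool of experiment 3 or 4 or the LFD pool of experiment 1 or 2 put the unadjusted p in limma at 0.074 to 0.083, with differences of 0.75 to 0.84. A further Sms probe set, which also carries the symbol Gm8234, was not used.

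Odc1, the entry to polyamine synthesis, was even across the HFD pools and split across the LFD pools in its brightest probe set. Its level was 8.31, 8.58, 8.35 and 8.33 in the HFD pools of experiments 1, 2, 3 and 4, against 8.33, 7.44, 7.42 and 8.51 in the LFD pools. The LFD pools of experiments 2 and 3 lay below every HFD pool, and those of experiments 1 and 4 lay within the HFD range. The mean difference was 0.47 (SE 0.27, unadjusted p = 0.12 in limma), 0.66 with an unadjusted p of 0.029 without the LFD pool of experiment 4, and 0.31 or 0.30 with an unadjusted p of 0.28 without the LFD pool of experiment 2 or 3. In the second Odc1 probe set the 4 experiments gave 0.09, 2.05, 0.88 and -0.22, a mean difference of 0.70 (SE 0.34, unadjusted p = 0.072 in limma). The HFD pools were less even in that set, at 7.73, 8.40, 7.83 and 7.54 in experiments 1, 2, 3 and 4. Its LFD pools were at 7.64, 6.34, 6.95 and 7.75. The 20 probe sets numbered nearest to the brightest Odc1 set all belong to chromosome 8, whereas Odc1 lies on chromosome 12, as do 15 of the 20 nearest to the second set, and which transcripts the brightest set reads was not tested.

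Srm, spermidine synthase, lay between 6.87 and 7.41 in HFD pools and between 6.82 and 7.54 in LFD pools. The 4 experiments gave differences of 0.05, 0.48, 0.18 and -0.27, which average 0.11 (SE 0.19, 95% interval -0.34 to 0.55, unadjusted p = 0.59 in limma). The HFD range lay wholly within the LFD range.

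Sat1, the spermidine and spermine acetyltransferase, had a mean level of 10.20 ± 0.22 in HFD pools and 10.19 ± 0.09 in LFD pools (SD, n = 4 pools each). The differences were -0.16, 0.03, -0.20 and 0.37 in experiments 1, 2, 3 and 4, so the sign depended on the experiment. The mean difference of 0.01 had a 95% interval of -0.27 to 0.28 (unadjusted p = 0.95 in limma).

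**Figure D2:**
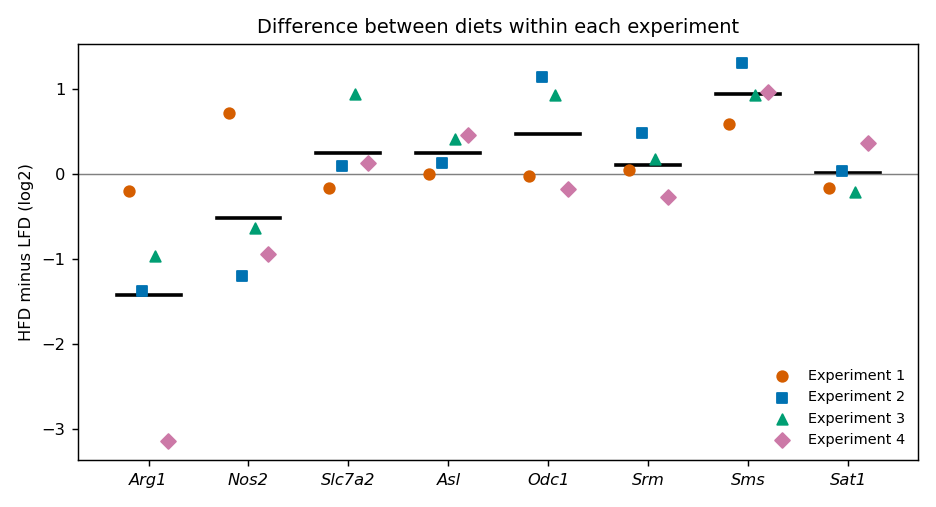
Difference in RMA log2 level, HFD minus LFD (vertical axis), within each experiment for the 8 measured genes (horizontal axis), with 1 point per experiment and a black bar for the mean. All points of Sms lie at 0.59 or higher, all points of Arg1 lie below 0 down to -3.14, and Nos2 has 1 point above 0, at 0.71 in experiment 1.

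Counted over the measured members, none passed an adjusted p under 0.05 in limma, where 0% of the 18820 genes did, and none did with experiment as a block, again against 0% of all genes. At an unadjusted p under 0.05 Sms was the 1 member that was higher, against 3.30% of all genes, and 0 members were lower, against 1.51%. With the block Sms was again higher (7.95% of all genes were) and Arg1 was lower (4.16% were). The sign was the same in all 4 experiments for 2 members that were higher, Asl and Sms, against 11.0% of all genes, and for 1 that was lower, Arg1, against 7.43%. No member had groups that did not overlap, whereas 1.19% of all genes were higher and 0.680% were lower in this way. With only 8 members, 1 or 2 genes move each of these shares widely.

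Leaving out experiment 1, whose macrophage means were the lowest, Sms was higher at an unadjusted p under 0.05 in limma (6.26% of all genes were) and Nos2 was lower (2.66% were), with all 3 HFD pools dim for Nos2. With the block added, a setting chosen after seeing the data, Sms and Asl were higher (7.15% of all genes) and Arg1 and Nos2 were lower (3.27%). Sms differed by 1.07 (SE 0.33) and Arg1 by -1.83 (SE 0.82) without experiment 1, in the fit without the block.

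Fat content of the HFD divided the experiments into 2 with 45% and 2 with 60%, and weeks of feeding differed along with it, so fat content and weeks cannot be told apart. In limma 0% of all genes had an adjusted p under 0.05 for the difference between 60% and 45% fat in the effect of diet, 1.20% had an unadjusted p under 0.05, and 0 members did. Sat1 was lower in HFD pools in both experiments with 45% fat and higher in both with 60%, and the effect at 60% minus that at 45% was 0.38 (95% interval -0.05 to 0.81, unadjusted p = 0.071). For Arg1 the same value was -1.68 with an interval of -5.19 to 1.83, and for Nos2 it was -1.11 with an interval of -4.15 to 1.93. For Sms it was 0.38, with an interval of -1.61 to 2.38. Leaving out 1 pool left 1 pool of that diet at that fat content, so only sizes are given. The value of Nos2 ranged from -2.40 without the HFD pool of experiment 3 to 0.18 without that of experiment 1. That of Arg1 ranged from -3.12 without the LFD pool of experiment 2 to -0.23 without that of experiment 4, and that of Sat1 from 0.28 to 0.48.

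The genes around the members were read from 4 further lists. Arginine transporters and their partners had 6 of 7 genes measured, with a median difference of 0.22, against 0.005 over all genes. All 6 of those means were above 0, though Slc7a3, at 0.02, was dim on all 8 arrays. At an unadjusted p under 0.05 in limma 0 passed, whereas 3.30% of all genes were higher and 1.51% lower. Slc7a1, the general cationic amino acid transporter, was higher in HFD pools in all 4 experiments, at 7.10, 6.82, 6.78 and 6.74 in the HFD pools of experiments 1, 2, 3 and 4, against 7.04, 5.94, 6.40 and 6.73 in the LFD pools. Slc7a6, a transporter that exchanges cationic for neutral amino acids, differed by 0.10, 0.96, 0.39 and 0.06. For both genes most of the difference lay in experiment 2, where the LFD pool was the lowest of all 8.

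The second list held the other nitric oxide synthases with the genes of the tetrahydrobiopterin cofactor and of inhibitors, and all 12 were measured, with a median difference of 0.03. Qdpr, dihydropteridine reductase, which regenerates the cofactor, was the 1 gene with an unadjusted p under 0.05 in limma without the block, and with it 3 genes were higher (Qdpr, Nostrin and Gchfr) and 1 was lower (Spr). Of all genes 3.30% were higher and 1.51% lower without the block, and 7.95% and 4.16% with it. The level of Qdpr was 7.12, 7.14, 7.35 and 7.40 in the HFD pools of experiments 1, 2, 3 and 4, against 6.88, 6.59, 7.12 and 7.02 in the LFD pools, a mean difference of 0.35 (SE 0.13, unadjusted p = 0.030). Each HFD pool exceeded its own LFD pool, and the groups met where the HFD pool of experiment 1 and the LFD pool of experiment 3 were both at 7.12. Nostrin, which traffics the endothelial synthase, was higher in all 4 experiments as well, by 0.19, 0.68, 0.37 and 0.48, and Gchfr, the feedback regulator of cofactor synthesis, was higher by 0.15 to 0.64 but dim on all 8 arrays. Spr, sepiapterin reductase of cofactor synthesis, differed by -0.19, -0.46, -0.02 and -0.34, and Nosip, an interacting protein of the endothelial synthase, by -0.40, -0.08, -0.12 and -0.28, so both were lower in all 4.

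Ddah1, Ddah2 and Prmt1 had the next largest mean differences in that list, from -0.16 to 0.14, with signs that varied between experiments. Ddah1, which breaks down methylated arginine inhibitors, differed by -1.03, -0.05, 1.15 and -0.71, and the mean of 18 endothelial markers differed by -0.30, -0.80, 1.96 and -1.63 in the same experiments. The part of endothelial cells in the Ddah1 level was not tested.

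The third list followed arginine and ornithine to proline, creatine and urea, with 11 of 13 genes measured and a median difference of 0.05. Aldh18a1, which makes the precursor of proline and ornithine from glutamate, was higher in HFD pools in all 4 experiments, by 0.23, 0.24, 0.43 and 0.03, a mean of 0.23 (SE 0.10, unadjusted p = 0.044 in limma). Oat, ornithine aminotransferase, had a mean difference of -0.26 (SE 0.21), with an unadjusted p of 0.26, and of 0.041 with the block. At an unadjusted p under 0.05 in limma, 3.30% of all genes were higher without the block and 4.16% were lower with it. Gamt, which completes creatine, differed by 0.21 on average, and most of it lay in experiment 3 at 0.62.

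The fourth list held other polyamine genes, 13 of 17 measured, with a median difference of 0.17 and 10 of 13 means above 0. Slc18b1, known as a vesicular polyamine transporter, was at 5.44, 5.68, 5.57 and 5.35 in the HFD pools of experiments 1, 2, 3 and 4, against 5.84, 6.10, 6.10 and 5.68 in the LFD pools. Every HFD pool was below every LFD pool, although the HFD pool of experiment 2 and the LFD pool of experiment 4 nearly met at 5.68. The difference was -0.42 (SE 0.12, unadjusted p = 0.010 and adjusted p = 0.982 in limma). It was the 1 gene of the 13 that was lower without overlap, against 0.680% of all genes, and the 1 lower at an unadjusted p under 0.05, against 1.51%. Atp13a2, a lysosomal exporter of polyamines, was higher in HFD pools in all 4 experiments, by 1.03, 0.13, 0.20 and 0.54, most of all in experiment 1, where the macrophage mean was also 1.25 higher in the HFD pool. Its unadjusted p in limma was 0.44, and 0.031 with the block, where 7.95% of all genes were higher at an unadjusted p under 0.05. The part of macrophage content in that difference was not tested. Dohh, which hydroxylates the polyamine-derived residue of the translation factor eIF5A, differed by 0.35 on average, Eif5a itself by 0.28 and Azin1, which spares Odc1 from its antizyme, by 0.28.

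**Figure D3:**
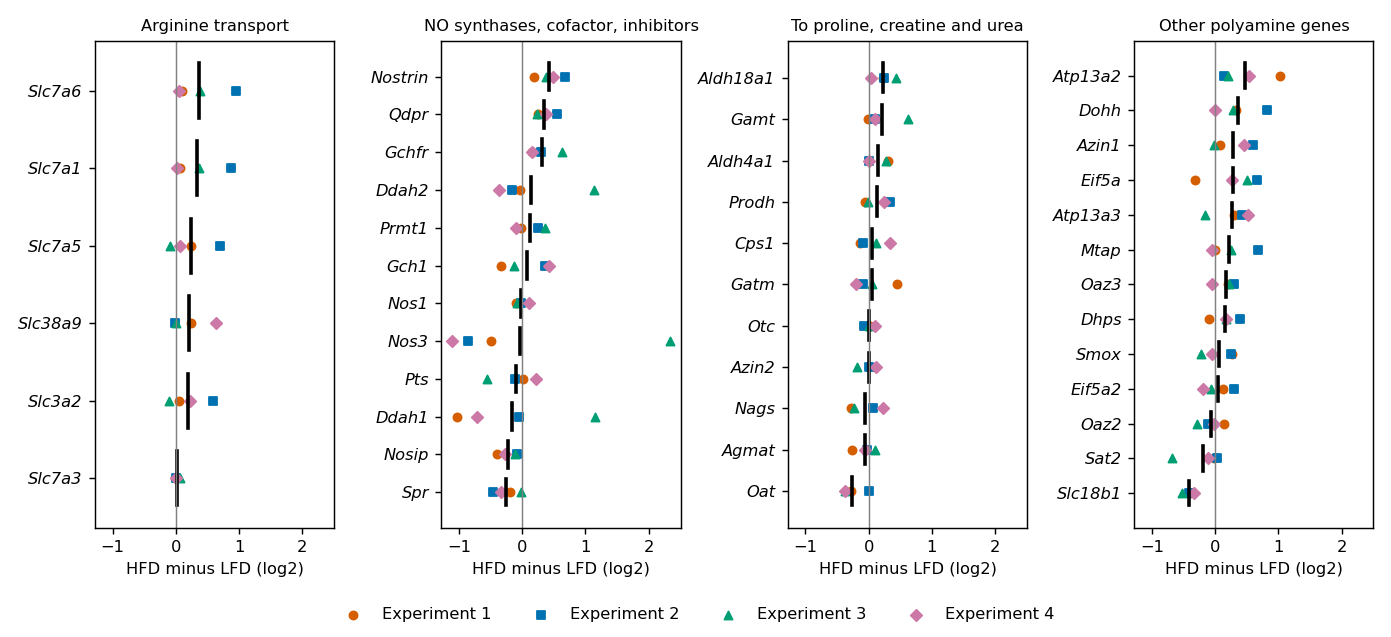
Difference in RMA log2 level, HFD minus LFD (horizontal axis), for the measured genes of the 4 further lists (1 panel each, 1 line per gene), with 1 point per experiment and a black bar for the mean. The points of Slc18b1 all lie between -0.53 and -0.33, while those of Nos3, the endothelial synthase, spread from -1.10 to 2.33.

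Arg1 and Nos2 are widely used as signs of alternative and classical activation, so other genes of both states were set beside them. Of 16 genes of alternative activation 15 were measured, with a median difference of -0.29, against -0.08 over the 16 measured of 17 classical ones, and 0 genes of either list passed an adjusted p under 0.05 in limma. Of the alternative list, 1 gene was higher at an unadjusted p under 0.05, Ccl22, a chemokine, which differed by 1.38, 1.95, 1.34 and 1.53 in experiments 1, 2, 3 and 4, and of the classical list 0 genes passed. Of all genes 3.30% were higher and 1.51% lower in this way. With experiment as a block and an unadjusted p under 0.05, where 7.95% of all genes were higher and 4.16% lower, Ccl22 was higher and Pdcd1lg2 was lower in the alternative list. Tnf was higher and Socs3 and Ifngr1 were lower in the classical list with the block. Ccl22 thus differed in the opposite direction to Arg1 in every experiment, whereas Pdcd1lg2, a ligand of PD-1, was lower in all 4 as Arg1 was, by -0.51, -0.41, -1.25 and -0.16, and lay below the dim limit on all 8 arrays. Ccl24, another chemokine of the alternative list, differed by 0.72, -2.25, -2.17 and -0.65, and Mgl2, a lectin, by 0.40, -1.94, -2.06 and -0.11, so both were higher in HFD pools in experiment 1 alone. Among classical genes Tnf was higher in HFD pools in all 4 experiments, by 2.15, 1.29, 0.25 and 0.77, whereas Nos2 was higher in experiment 1 alone. Irf5, a transcription factor of the classical list, was also higher in all 4, by 0.06 to 2.05, with its largest difference in experiment 1. In that experiment the mean of the macrophage markers was also 1.25 higher in the HFD pool. The part of macrophage content in the differences of both lists was not tested. Socs3, an inhibitor of cytokine signalling, and Ifngr1, a chain of the interferon-gamma receptor, were lower in all 4, with means of -0.56 and -0.21.

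Across the 8 arrays, the genes whose centred levels ran closest to Arg1 were Serpinb2, a plasminogen activator inhibitor, Slpi, an inhibitor of leukocyte proteases, and Asb2, with root mean square distances of 0.66, 0.67 and 0.79 on the log2 scale. Serpinb2 was at 3.83, 4.55, 4.82 and 4.15 in the HFD pools of experiments 1, 2, 3 and 4, against 4.06, 6.45, 6.10 and 7.66 in the LFD pools. Like Arg1, it was lowest among the LFD pools in experiment 1 and highest in experiment 4. Nos2 ran closest to Ptprm, a receptor phosphatase, Lrrc8c, an anion channel subunit, and Rasgrp2, an exchange factor for Rap, at distances of 0.36, 0.36 and 0.39, and all 3 were highest in the pools of experiment 1.

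Sms had closer neighbours than either, with Abcg1, a cholesterol exporter, at 0.097, Cd22, a sialic acid-binding receptor, at 0.13, and Evl, a regulator of actin, at 0.14. Abcg1 was at 8.03, 8.66, 9.18 and 9.33 in the HFD pools of experiments 1, 2, 3 and 4, against 7.24, 7.39, 8.29 and 8.26 in the LFD pools. Each HFD pool of Abcg1 exceeded its LFD pool, and levels were lower in experiments 1 and 2 than in 3 and 4 under the LFD, as for Sms. These are descriptions over 8 arrays, among 10629 genes with a mean above the dim limit, and genes that vary less over the arrays can lie closer.

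**Figure D4:**
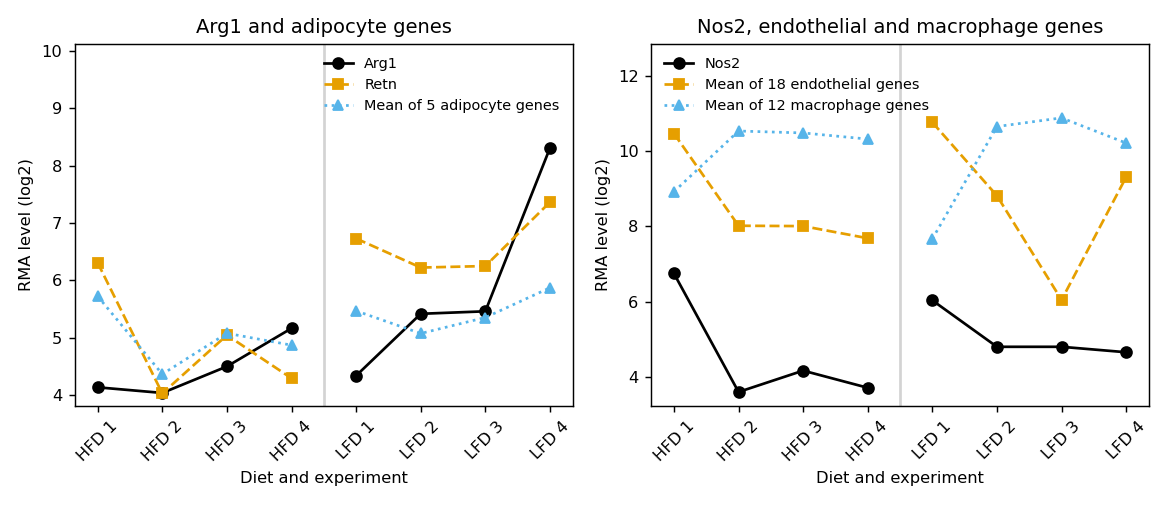
RMA log2 level (vertical axis) on each of the 8 arrays (horizontal axis, HFD pools left of LFD pools, numbered by experiment), with Arg1 beside Retn and the mean of 5 adipocyte genes, Retn included (left panel), and Nos2 beside the means of 18 endothelial and 12 macrophage markers (right panel). Arg1 and Retn both reach their highest level in the LFD pool of experiment 4, at 8.30 and 7.36, and Nos2 is highest in the 2 pools of experiment 1, at 6.75 in the HFD pool and 6.03 in the LFD pool.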

How the data were processed

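RNA of F4/80-selected ATMs was measured on 8 Affymetrix whole-transcript arrays, 4 from HFD-fed and 4 from LFD-fed mice, each a pool. The authors deposited log2 values, and RMA is the tool named in the submitters' processing notes (background correction, quantile normalisation and summary of probe sets), with no version or build given. The array analysis of the study is described in supplementary methods not used here. Of 35556 features, 21218 had 1 symbol, 1881 several and 12457 none, giving 18820 genes. For 1386 genes with several probe sets the brightest was used. Array medians ranged from 4.25 to 4.39, and the number of arrays limits the precision.

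HFD was compared with LFD with lmFit and eBayes of limma 3.58.1 in R 4.3.3 on the deposited log2 values, two-sided, with Benjamini-Hochberg adjustment over all genes and a threshold of 0.05. No values were left out or imputed. The experiment number in the labels pairs the arrays. The deviations of its HFD and LFD array from their diet means correlated at 0.889, 0.357, 0.652 and 0.186 in experiments 1, 2, 3 and 4 (Pearson's r across genes, no independent replicates). These values cannot show the pairing by themselves. Each array is part of the mean it is set against, experiment 1 stood apart under both diets, and unmatched arrays were not compared. Values with this block stand beside those without it where they change a member's unadjusted call or a list's count. Each pool is 1 sample, and p-values measure the spread among these pools. The effect of fat content was tested as an interaction in limma.

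The members and lists were chosen with earlier results of these data known. All 10 members may be named. Of each list, genes with the same sign in all 4 experiments and up to 3 others with the largest difference may be named, as may the 3 genes nearest to each of the 3 members with the largest range. Retn, Adipoq, Plin1, Lep, Cidec, Nos3, Cd79a, Cd79b, Mmp9, Cpa3, Mcpt4, Tpsb2, Kit, Cma1 and Slc7a3 were named after their values were seen. So were Col1a1, Col3a1 and the other fibroblast genes. As alternatives, experiment was a fixed or a random block, single arrays, experiments 1 or 4 or dim genes were left out (more than 4 arrays under a log2 of 4.32), and other scalings, another prior, the methods' t-test and the mean over probe sets were used. Values set to the dim limit, the second Odc1 probe set and experiment 1 left out with the block or with values set to the dim limit were added after seeing the data. Start regions came from RefSeq (GRCm38.p6).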

Additional observations from a re-analysis of the deposited data

Results flagged for a closer look

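Among the LFD pools, the Nos2 level of 6.03 in experiment 1 stood apart from the other 3, with a gap to the nearest of 0.895 of the whole range, above Dixon's critical value for 4 samples. Among the HFD pools, the Odc1 level of 8.58 in experiment 2 stood apart with a gap of 0.843 of the range, although the 4 HFD levels of Odc1 spanned only 8.31 to 8.58. Chance gives such a gap in about 1 of 20 groups, and the 8 measured genes were looked at under both diets.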

How the results depend on the processing

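No alternative gave an adjusted call in limma for any member. Over all genes 2 were called without experiment 1 with values set to the dim limit, and 0 under every other alternative of HFD against LFD and of the effect of fat content. The differences of Arg1, Nos2, Slc7a2, Asl, Odc1, Srm and Sms kept their sign under all alternatives run, and Sms ranged from 0.75 to 1.20, with an unadjusted p under 0.05 in 16 of 21 alternatives and up to 0.083 in the others. That of Sat1 was -0.11 without experiment 4, -0.0443 with arrays centred on their medians and -0.0787 after quantile normalisation, and -0.0755 to 0.0759 with single arrays left out. With single arrays left out, Arg1 minus Nos2 ranged from -1.74 to 0.0423, and the effect of fat content from -3.12 to -0.23 for Arg1, -2.40 to 0.18 for Nos2, -0.39 to 0.57 for Asl, -0.51 to 0.56 for Odc1, -0.32 to 0.30 for Srm, -0.17 to 0.93 for Sms and -0.59 to 0.0394 for Slc7a2. The cause was not tested. Unadjusted, limma put 621 genes higher and 284 lower at a p under 0.05, and 312 and 402 with arrays centred, with 462 and 455 after quantile normalisation and 1497 and 783 with the replicate block. The block changed the unadjusted call of Arg1 and no other member's. The methods' t-test gave 524 higher and 286 lower, 0 members, and 0 genes after adjustment. Pools are few, and dim signal limits the size of the differences of Arg1, dim in the HFD pools of experiments 1 and 2, and of Nos2, dim in those of experiments 2, 3 and 4.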
